A study of Mus musculus with 8 samples.

Results

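The Crumbs and PAR complexes hold the apical side of epithelial cells apart from the rest, and 10 of their genes were followed here: Patj, Crb1, Crb2, Crb3, Pard3, Pard3b, Pard6b, Pard6g, Prkci and Llgl1. They are 10 of 21883 protein-coding genes with a locus, taken as the gene span on GRCm38 plus 10 kb on either side. Patj was selected on its covered length, the number of bases under peaks, which was lower in the mutant, so its difference between genotypes is a description with no test. The other 9 were listed for their family, with earlier results of these data known.

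In a cortical progenitor, the radial glial cell, the apical endfoot lines the ventricle and carries the Crumbs complex (a Crumbs transmembrane protein, PALS1 and the scaffold PATJ) and the PAR complex (PAR3, PAR6 and atypical protein kinase C). LGL is a substrate of that kinase and acts on the basolateral side. These complexes are known for keeping adherens junctions and progenitor attachment in the embryonic cortex. Monomethylation of lysine 4 of histone H3 marks enhancers and the flanks of promoters, and is usually low at the very start of an active gene.

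ChIP-seq was run on native chromatin from whole cortex lysates of E15.5 mouse embryos, with an antibody to H3K4me whose catalogue entry is for the monomethylated form. The lists came from 2 libraries of embryos of genotype Prdm16 flox/flox, for which no Cre is named, called WT, and 2 of Emx1Ires-Cre; Prdm16flox/flox embryos, called cKO. Both genotypes carry the floxed alleles. Emx1 drives Cre in progenitors of the dorsal telencephalon, so interneurons, vessels and microglia in the lysate keep the gene. The labels do not say whether the libraries came from separate embryos or pools, and any p-value measures only the spread between these libraries, which may be technical. The comparison asks where the mark differs when the zinc-finger regulator PRDM16 is deleted.

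The deposited lists held 66476 to 82683 peaks and covered 114 to 166 Mb, with more in both cKO libraries (a ratio of 1.29 between genotype means). The read depth behind them is unknown. The median share of the locus under peaks was 51.4% to 52.0% in WT against 56.4% to 59.6% in cKO for 6 genes of radial glia, the cells that carry the apical complexes, and the part of this in the results was not tested. The genotypes were also apart for choroid plexus and ependyma (18.6% to 19.0% against 20.2% to 20.8%), microglia (4.04% to 6.01% against 6.32% to 6.42%), and muscle and liver (0.226% to 0.366% against 0.376% to 0.462%, with Alb at 0). Over the 4 libraries it was 49.8% to 59.1% for genes of intermediate progenitors and 56.9% to 72.5% for projection neurons. It was 2.46% to 6.34% for endothelium and 1.75% to 3.58% for erythroid cells (Gata1 at 0), and in these 4 classes the genotypes overlapped. Where the genotypes were apart, cKO was the higher. Of 14937 single loci, 59.8% had more covered length in both cKO libraries, and a difference in cell make-up was not tested. The targeted gene, Prdm16, had 154 and 144 kb under peaks in WT against 171 and 182 kb in cKO, and broad peaks over the gene do not check the deletion. In a tissue lysate, less mark per cell and fewer marked cells cannot be told apart.

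All 10 polarity loci held peaks in all 4 libraries and passed the filter on thinly covered loci, a mean of at least 1000 covered bases. The share of the locus under peaks sets covered bases against locus length. The 10 kb flanks weigh more in short genes: Crb3 fills 3.72 of its 23.7 kb, and Pard3b 1004 of 1024 kb. The order given here is thus one of loci with their flanks, and not of genes alone. Crb2, which encodes a Crumbs transmembrane protein, was the most covered, at 38.5% ± 3.39 (SD, n = 4 libraries of both genotypes). Pard6b, an adaptor that binds CDC42 and the kinase, followed with 27.2% ± 1.87. Pard3, the PDZ scaffold that anchors the PAR complex, stood at 20.7% ± 5.11, and its range over the 4 libraries overlapped that of Pard6b, although Pard6b was the higher of the pair within each library. The range of Crb2 lay above that of Pard6b.

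Llgl1, Pard6g and Crb3 could not be ordered. Their shares were 15.3% ± 0.858, 14.7% ± 2.49 and 14.3% ± 4.36, and their library ranges overlapped each other. The range of Pard3 overlapped all of these, and that of Prkci overlapped those of Pard6g and Crb3. Prkci, the gene of the atypical kinase, followed with 9.52% ± 3.81 and Patj with 8.0% ± 1.42, again with overlapping ranges. The genotypes ordered this pair in opposite ways. In WT the mean share was 9.10% for Patj and 6.55% for Prkci, and in cKO it was 6.91% and 12.5%. The order was the same in both libraries of a genotype. Less covered length in cKO was how Patj was chosen, so the turn in this pair is a description with no test. Pard3b, a paralogue of Pard3 with the longest locus (1024 kb), had 5.67% ± 0.868, and Crb1 had the least, 3.70% ± 1.01. The lowest Pard3b library (4.78%) lay just above the highest Crb1 library (4.67%). The range of Pard3b overlapped those of Patj and Prkci, and the range of Crb1 overlapped that of Prkci.

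**Figure D1:**
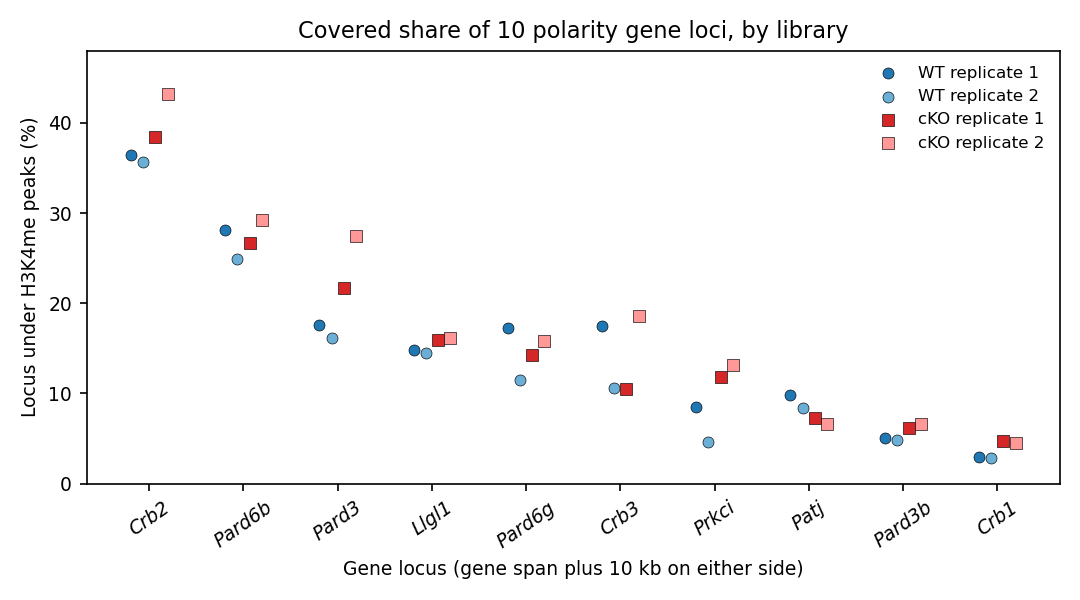
Share of each polarity gene locus under H3K4me peaks (vertical axis, percent) by gene, with 1 point per library; circles are WT and squares are cKO. Crb2 is highest at 35.7% to 43.2%, Crb1 lowest at 2.77% to 4.67%, and Patj is the gene whose 2 cKO points both lie under its 2 WT points.

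Peaks lay at the annotated start of some of these genes and beside it in others. RefSeq gave 13 start windows for 9 of the genes, each 250 bases before to 50 after a start, and none was used for Pard6g. A peak touched 6 of the 13 in all 4 libraries and 3 in none, compared with 22.6% and 49.98% of 21262 windows of protein-coding genes. Both windows of Crb3 are among the 6 and overlap each other. By gene, 5 of the 9 had a window with a peak in all 4 libraries, Patj only through its internal start. No share by gene was taken over all genes. The windows of Crb2, Crb3 and Llgl1 were under peaks throughout, and that of Crb1 in 203 to 246 of its bases. At Pard6b the window was free of peaks in every library, with the nearest peak 537 to 719 bp from the start. At the first start of Pard3 it was free in 3 libraries, with the nearest peak 480 to 723 bp away, and covered in cKO replicate 2. The start of Prkci was covered in cKO replicate 1 alone, with a peak 529 to 727 bp away in the others.

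Patj has 3 annotated starts, and the marked one is internal. The first, at base 98395826 of chromosome 4, was covered in WT replicate 1 alone; in cKO replicate 2 the nearest peak was 279 bp away, and in the other libraries over 12 kb away (12232 and 12224 bp). The second, at 98411027, had no peak in any library. The third, at 98546634, was under peaks over all 300 bases of its window in all 4 libraries. The internal start was thus the one start of Patj with a peak in every library.

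The 250 bases before 4 of these starts are shown because they contrast the start of Patj with a peak in all 4 libraries with its first annotated start, which had one in WT replicate 1 alone, and a covered start (Crb2) with one whose peaks lie on its flanks (Pard6b). They are RefSeq sequences on GRCm38.p6, + strand, 5′ to 3′, and capitals mark the GC box (GGGCGG), the CCAAT box (CCAAT), the TATA box (TATAAA) and 2 E-boxes (CAGCTG and CAGATG), each searched on both strands.
Patj first start, chr4:98395576-98395825: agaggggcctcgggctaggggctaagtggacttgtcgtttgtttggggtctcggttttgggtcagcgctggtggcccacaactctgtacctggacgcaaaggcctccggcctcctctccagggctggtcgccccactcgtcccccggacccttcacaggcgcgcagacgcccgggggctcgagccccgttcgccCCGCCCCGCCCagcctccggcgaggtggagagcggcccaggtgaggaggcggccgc
Patj internal start, chr4:98546384-98546633: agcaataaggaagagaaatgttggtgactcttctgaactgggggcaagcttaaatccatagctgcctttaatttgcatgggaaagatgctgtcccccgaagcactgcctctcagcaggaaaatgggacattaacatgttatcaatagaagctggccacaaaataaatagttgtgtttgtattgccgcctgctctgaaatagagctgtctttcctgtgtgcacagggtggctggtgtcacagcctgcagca
Crb2 start, chr2:37775999-37776248: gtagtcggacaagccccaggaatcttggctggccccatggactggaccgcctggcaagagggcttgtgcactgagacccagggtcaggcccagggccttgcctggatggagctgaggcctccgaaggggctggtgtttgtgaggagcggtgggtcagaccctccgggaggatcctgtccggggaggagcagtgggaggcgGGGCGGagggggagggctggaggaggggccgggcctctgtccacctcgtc
Pard6b start, chr2:168080754-168081003: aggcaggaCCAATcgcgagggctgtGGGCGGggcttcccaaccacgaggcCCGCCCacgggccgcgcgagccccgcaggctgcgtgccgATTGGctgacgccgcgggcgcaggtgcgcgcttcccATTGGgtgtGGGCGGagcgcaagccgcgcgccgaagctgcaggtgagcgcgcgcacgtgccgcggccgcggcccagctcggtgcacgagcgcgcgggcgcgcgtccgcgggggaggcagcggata

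The sequences before the starts of Patj differed in composition. The sequence before the first start held 23 CpG dinucleotides, 71.2% G and C, and 2 GC boxes that share 1 base. Before the internal start there were 2 CpG, 46.4% G and C, and none of the motifs searched. The second start, the one with no peak in any library, had 6 CpG and 48% G and C. Pard6b had 43 CpG, with 3 GC boxes and 3 CCAAT boxes, and Crb2 had 10 CpG and 1 GC box. Over all windows the median was 10 CpG, over windows with a peak in all 4 libraries 14, and over windows with none 3. A GC box was found in 42.6% of all windows, a CCAAT box in 35.4%, a TATA box in 11.6%, CAGCTG in 12.1% and CAGATG in 12.4%. Of the 13 windows of these genes, 7 held a GC box, 3 a CCAAT box, 1 a TATA box and none an E-box of either kind; a match describes the letters and not a bound site.

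Patj, the PDZ scaffold of the Crumbs complex, is the gene the set was built around. It lies on chromosome 4 from 98395560 to 98719603, and its locus spans 344 kb. Of this, 33.8 kb was covered in WT replicate 1, 28.8 kb in WT replicate 2, 24.9 kb in cKO replicate 1 and 22.6 kb in cKO replicate 2. Both cKO libraries were below both WT libraries, with means of 31.3 kb ± 3.5 in WT against 23.8 kb ± 1.67 in cKO (SD, n = 2 each), a difference of −24.1%. Peak numbers overlapped, with 25 and 17 in the WT lists against 17 and 19 in the cKO lists.

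The share of loci ordered like this depends on the peak lists, and the ordering of Patj chose the gene and carries no test. Of 14937 loci, 1.23% had less covered length in both cKO than in both WT libraries, 59.8% had more, and in 38.9% the genotypes overlapped. The ratio of cKO to WT at Patj, 0.759, stood at percentile 0.803 of all loci. With every list shortened to equal covered length, 15.6% of loci were lower in both cKO libraries, and Patj, with a ratio of 0.692, stood at percentile 14.6. The shortened lists had unlike limits of peak significance. The lowest −log10 q kept was 2.64 and 1.31 in WT replicates 1 and 2, against 3.65 and 3.75 in cKO replicates 1 and 2. After each library was centred on its median locus, the log2 difference of Patj was −0.77 ± 0.13 (SE), and it was −0.39 without centring.

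**Figure D2:**
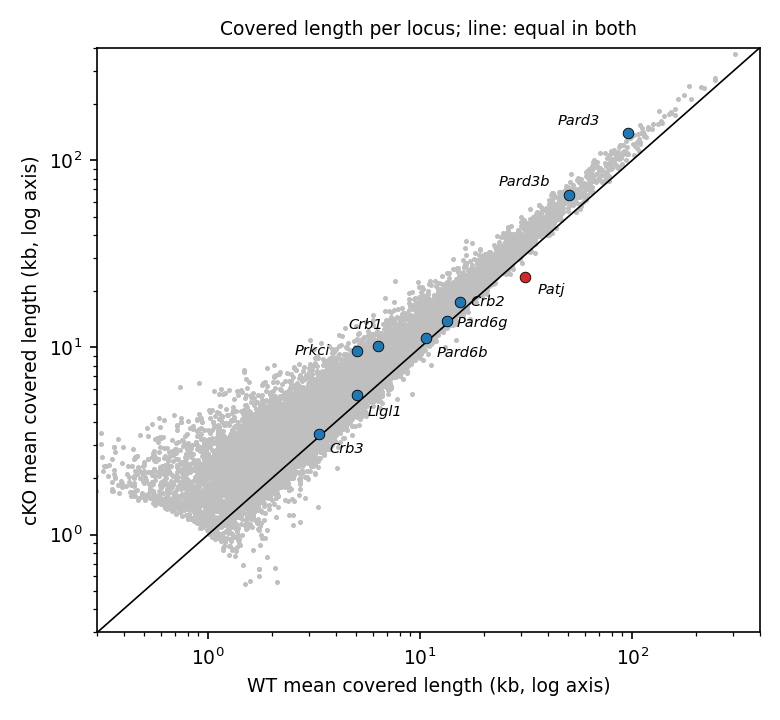
Mean covered length per locus in WT (horizontal, kb, log axis) against cKO (vertical, kb, log axis); grey points are the loci that passed the filter, blue points the other polarity genes and the red point Patj, and the line marks equal lengths. Loci beyond the axes or at 0 in a genotype are not drawn. Most points lie above the line, and Patj lies below it at 31.3 and 23.8 kb.

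Weak peaks held more of Patj in WT than in cKO, and the order of the genotypes turned when they were left out. In the WT libraries 15 of 25 and 7 of 17 Patj peaks had a −log10 q below 3 in the authors' lists, and they held 17.2 and 13.3 kb. In the cKO libraries 4 of 17 and 5 of 19 were below 3, holding 3.16 and 3.88 kb. With stricter peaks, those of at least 3, Patj had 16.5 and 15.6 kb in WT against 21.8 and 18.7 kb in cKO, higher in both cKO libraries, as were 60% of loci, and a ratio of 1.26, at percentile 30.1. The median locus then had a ratio of 1.5, so the centred log2 difference was still negative, at −0.29. Weak peaks were unevenly spread over whole lists as well: 32.8% and 50.6% of all peaks were below 3 in WT replicates 1 and 2, and 27.5% and 35.5% in cKO replicates 1 and 2, and the part of this spread in the Patj values was not tested.

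Along the gene, the mark was concentrated downstream of the internal start. The 151 kb of the span before it held 1.60% to 3.30% covered bases in the 4 libraries, with overlapping genotypes (4.99 and 2.90 kb in WT, 2.42 and 4.31 kb in cKO). The 173 kb from that start on held 26.4 and 24.5 kb in WT against 20.7 and 16.4 kb in cKO, or 15.3%, 14.2%, 11.99% and 9.46%. The lower covered length of the cKO libraries thus lay in the downstream portion of the gene.

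**Figure D3:**
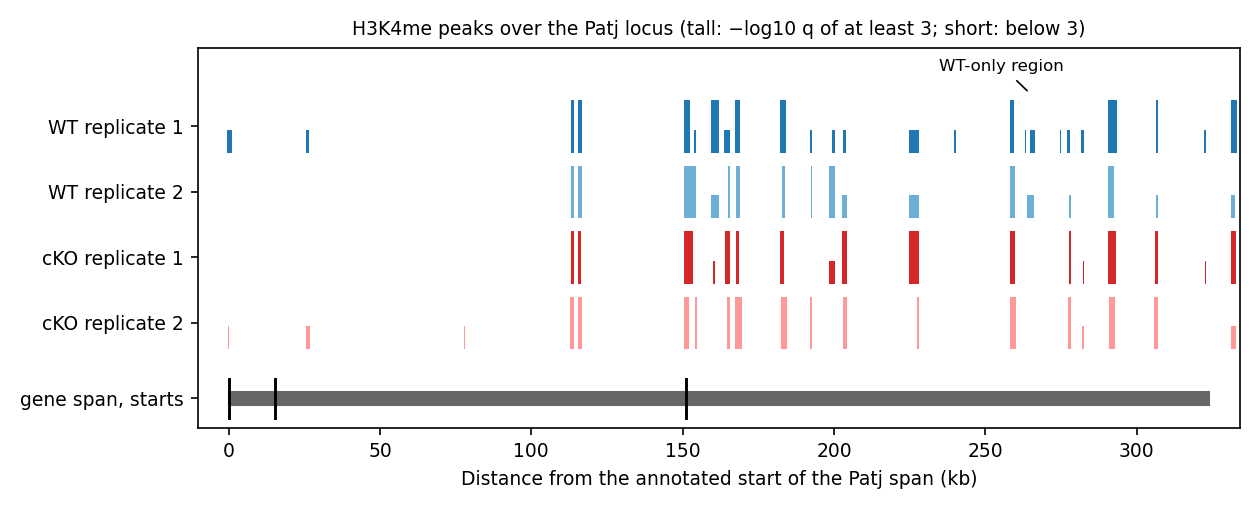
Peaks over the Patj locus, with distance from the start of the annotated span in kb on the horizontal axis and 1 row per library; tall bars are peaks with −log10 q of at least 3, short bars are weaker ones, the grey bar is the gene span and black ticks are the 3 annotated starts. Short bars are more frequent in the WT rows (15 of 25 and 7 of 17 peaks) than in the cKO rows (4 of 17 and 5 of 19), and the WT-only region lies 265 kb from the start.

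Peaks of the 4 libraries merged into 25 intervals over the locus, 13 of them touched in all 4 libraries, 4 in 3, 4 in 2 and 4 in 1. In 4 intervals both cKO libraries had fewer covered bases than both WT libraries, in 2 they had more, and in 19 the genotypes overlapped. The mean difference of −7.54 kb is a net value, in which gains at some intervals offset losses at others. The 3 intervals with the most negative differences summed to −5.88 kb, or 78.0% of that net value. The first of them, 159 kb from the start of the span, had 2643 and 2341 bp in WT against 463 and 0 bp in cKO. Its −log10 q was 4.04 and 1.69 in WT and 2.04 in cKO replicate 1. The next, 264 kb from the start, had 1480 and 2619 bp in WT and none in either cKO library. The remaining one, at 225 kb, had 3538 and 3584 bp in WT against 3436 bp in cKO replicate 1, and was short in cKO replicate 2 alone (556 bp). Its −log10 q was 2.00 and 2.99 in WT against 3.76 and 4.58 in cKO, so the narrower cKO peaks were the more significant ones. So a single cKO library set the difference at 1 of these 3 places.

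One stretch was covered in both WT libraries with no peak base in either cKO library. It spans 1436 bp, from 98660354 to 98661789 on chromosome 4, inside the Patj span; exons were not used here. Its −log10 q was 2.92 and 1.73 in WT replicates 1 and 2, both below the stricter limit. Of 581 such WT-only regions in the genome, with a median of 378 bp, 3 were longer. A WT-only region was found in 2.18% of loci.

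Of the places with high −log10 q, several had peaks in all 4 libraries. The interval at the internal start, 150 kb from the start of the span, had 2472 and 3824 bp in WT against 3031 and 2311 bp in cKO, with a −log10 q of 5.35 and 4.46 in WT against 9.19 and 5.41 in cKO. Another at 291 kb had 2703 and 1986 bp in WT against 2529 and 2189 bp in cKO. Both overlapped between genotypes in covered bases. The intervals at 113 and 306 kb were the 2 with more bases in both cKO libraries (1194 and 1128 bp against 966 and 919 bp, and 940 and 1347 bp against 599 and 880 bp). Of the bases common to both WT libraries in the locus, 56.0% were also common to the cKO libraries, and in the other direction the share was 85.8%. For the 9 other genes the first share was 83.6% to 100%.

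**Figure D4:**
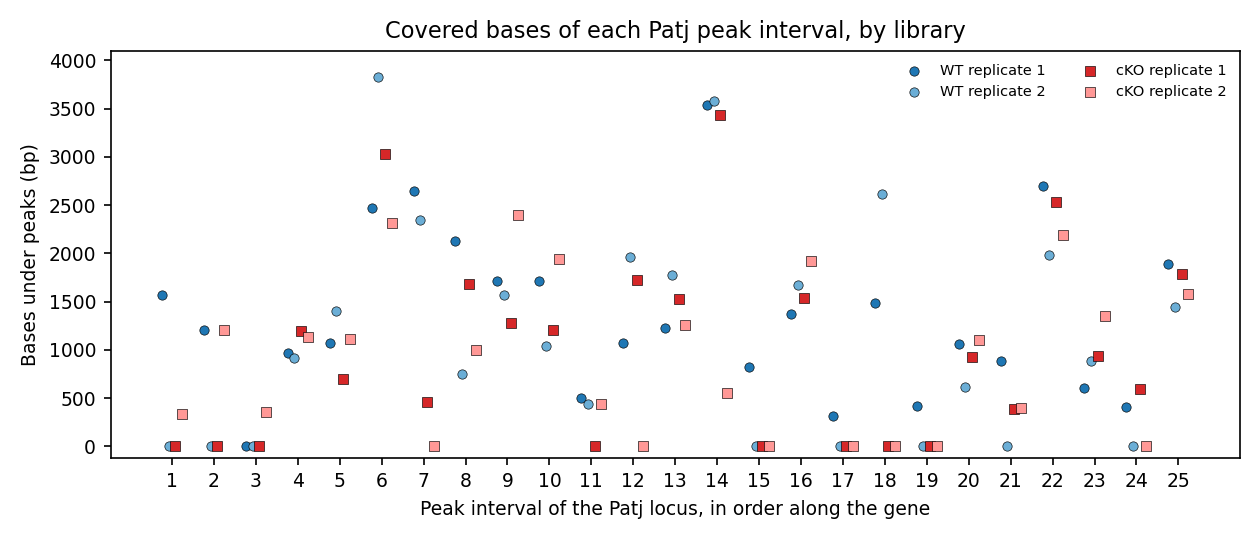
Bases under peaks (vertical axis, bp) in each of the 25 peak intervals of the Patj locus, numbered along the gene, with 1 point per library; circles are WT and squares are cKO. In intervals 7, 11, 14 and 18 both squares lie below both circles, in intervals 4 and 23 above, and the rest overlap.

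The 2 loci that overlap that of Patj were thinly covered, and neither was lower in both cKO libraries. Tm2d1, upstream, had 1.36 and 1.43 kb covered in WT against 1.87 and 2.17 kb in cKO. L1td1, downstream, had 2.30 and 1.44 kb in WT against 2.38 and 1.58 kb in cKO. These loci share 7.71 and 12.9 kb with that of Patj, and their centred log2 differences were 0.024 ± 0.32 and −0.31 ± 0.34 (SE; limma adjusted p = 0.981 and 0.746). The profiles most like that of Patj over the 4 libraries, among 13985 loci on other chromosomes, were those of Braf, Il15, Rbp2, Lyst and Ackr4, with Euclidean distances of 0.075, 0.082, 0.093, 0.10 and 0.12 on the centred log2 scale against a median of 0.84. Their centred differences lay between −0.83 and −0.68, and all 5 were thinly covered, with at most 4.95 kb in a library.

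Across all 14937 loci, limma with Benjamini-Hochberg adjustment called 0 higher and 0 lower in cKO (0% in each direction; smallest adjusted p = 0.407). At an unadjusted p under 0.05 there were 831 higher and 661 lower loci (5.56% and 4.43%). The fit without WT replicate 1 called 119 higher and 5 lower loci, and no fit with 1 library left out called any of the 9 members other than Patj. With all 4 libraries the adjusted p-values of these 9 lay between 0.486 and 0.959, and over the fits with 1 library left out the lowest was 0.0938, for Prkci without WT replicate 1.

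By covered length, 6 of the 10 loci had more in both cKO than in both WT libraries, 1 (Patj) had less and 3 overlapped, where 59.8%, 1.23% and 38.9% of all loci did so. Of the 10 loci, 6 overlap the locus of another gene, whose mark cannot be told apart from theirs in the shared part. The 6 with more are near the background of these lists. Patj was chosen for less covered length in cKO. It is counted in the lower and negative loci given here and in the median of the 10, and carries no test there. After centring, 3 differences were positive and 7 negative, with a median of −0.24 against −0.038 over all loci; without centring 9 were positive, all but Patj, and the median locus was at 0.35. With stricter peaks 6 of the 10 loci were higher and none lower in both cKO libraries, against 60% and 0.82% of all loci. With equal covered length, 3 of the 10 loci (Patj, Crb3 and Pard6g) were lower and 4 (Crb1, Crb2, Pard3 and Llgl1) higher in both cKO libraries, against 15.6% and 26.9% of all loci.

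**Figure D5:**
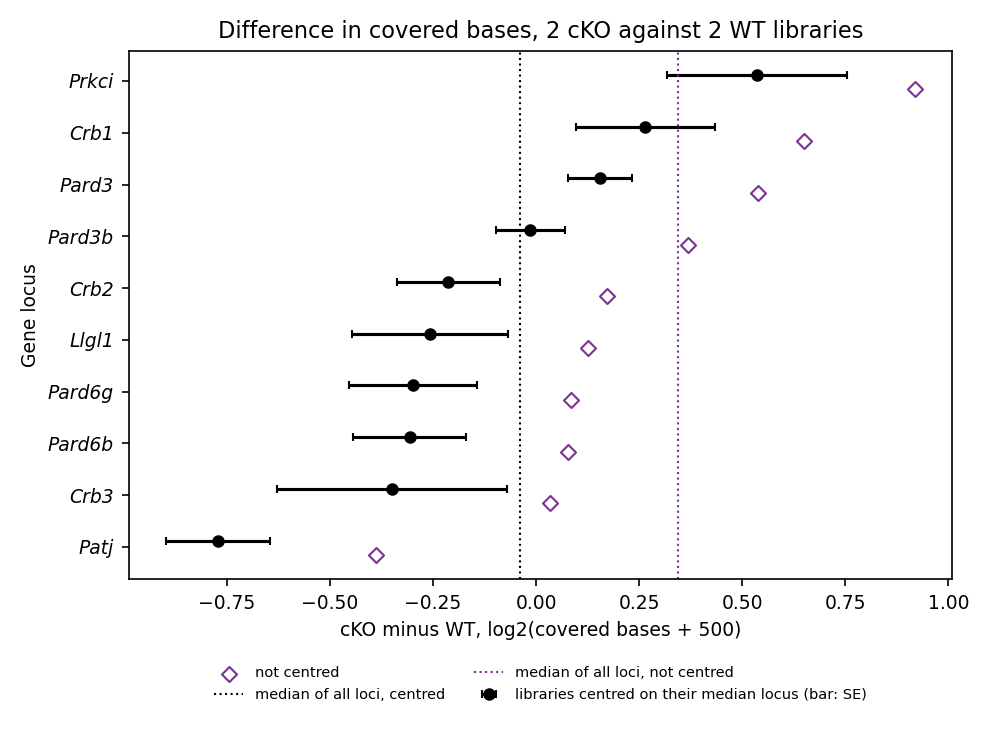
Difference between cKO and WT in log2(covered bases + 500) for each polarity gene (horizontal axis), with filled points and SE bars after centring each library on its median locus and open diamonds without centring; dotted lines mark the median of all loci. Patj is lowest on both scales (−0.77 and −0.39), Prkci highest (0.53 and 0.92), and without centring Patj is the only gene below 0.

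Among the Crumbs transmembrane genes, Crb1 (chromosome 1, 139176649 to 139379316) had more covered bases in cKO. It had 6.44 and 6.18 kb under peaks in WT against 10.4 and 9.96 kb in cKO, with 5 peaks in each WT list and 8 in each cKO list. Its centred log2 difference was 0.27 ± 0.17 (SE), with a 95% interval of −0.12 to 0.65, and it missed the threshold (limma adjusted p = 0.596). With stricter peaks it was −0.010, and with 1 library left out it lay between 0.15, without cKO replicate 1, and 0.38. Of the bases common to both cKO libraries, 57.6% were covered in both WT libraries, and 98.8% in the other direction. Crb1 held 2 regions covered only in cKO, of 360 and 556 bp.

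Crb2 (chromosome 2, 37776225 to 37799103) had 15.6 and 15.3 kb under peaks in WT against 16.5 and 18.5 kb in cKO. A single broad peak of 7086 to 7794 bp over its start was its strongest in every library, and 99.8% of the WT-common bases were also common to cKO. Its centred difference of −0.21 ± 0.13 (SE; limma adjusted p = 0.574) turned to 0.17 without centring, and was −0.12 without WT replicate 2. Crb3 (chromosome 17, 57062201 to 57065918), the smallest gene of the set, had 4.15 and 2.5 kb in WT against 2.49 and 4.40 kb in cKO, so the genotypes overlapped. Its strongest peaks were weak, with a −log10 q of 2.73 to 4.08.

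The PAR scaffold Pard3 carried the most mark by length. Its locus of 569 kb around the gene (chromosome 8, 127063381 to 127612286) had 99.7 and 91.5 kb under peaks in WT against 124 and 156 kb in cKO, with 57 to 62 peaks. Both cKO libraries exceeded both WT libraries, and the cKO libraries differed from each other by more than the WT libraries did (139.9 kb ± 23.2 against 95.6 kb ± 5.81; SD, n = 2 each). The centred log2 difference was 0.15 ± 0.077 (SE; limma adjusted p = 0.526), positive in all 15 alternatives but at 0.072 without cKO replicate 2, 0.065 with stricter peaks and 0.24 without cKO replicate 1. The strongest Pard3 peak stood between percentiles 98.1 and 99.6 of its own list by −log10 q, the highest of the set, with a fold enrichment of 5.87 to 7.96 as called by the authors. The widest reached 12327 bp, in cKO replicate 2.

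Pard3 also held 7 of the 11 regions that were covered only in the cKO libraries, from 313 to 1169 bp. The others were the 2 in Crb1, 1 of 838 bp in Pard3b and 1 of 361 bp in Pard6g. Regions of this kind were found in 18.6% of all loci, and 4 of the 10 polarity loci had one, in a set with several long genes. Their −log10 q was between 1.51 and 3.78, apart from 8.07 in cKO replicate 1 for the Pard6g region. With stricter peaks there were again 11, but 5 were in Pard3b, 3 in Patj, 2 in Pard3 and 1 in Pard6g, and with equal covered length there were none.

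Pard3b (chromosome 1, 61638667 to 62642284) had 52.2 and 49.0 kb under peaks in WT against 63.4 and 67.6 kb in cKO. Its ratio of cKO to WT was 1.29, as for the whole lists, and its centred difference was −0.014 ± 0.084 (SE; limma adjusted p = 0.959; 95% interval −0.21 to 0.18). Pard3 and Pard3b shared long spans and many peaks, but Pard3b had 5.67% of its locus covered and Pard3 20.7%. Its strongest peak in every library lay at the same place on chromosome 1, from 62213641 to 62217280 in WT replicate 1, with a fold enrichment of 5.11 to 7.21.

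The PAR6 adaptors overlapped between genotypes. Pard6b (chromosome 2, 168081004 to 168101203) had 11.3 and 9.99 kb under peaks in WT against 10.7 and 11.7 kb in cKO, and Pard6g (chromosome 18, 80046830 to 80119640) had 16.1 and 10.6 kb in WT against 13.2 and 14.6 kb in cKO. Their centred differences were −0.31 ± 0.14 and −0.30 ± 0.16 (SE; limma adjusted p = 0.504 and 0.539), and both turned positive without centring (0.077 and 0.085). That of Pard6g was −0.12 when WT replicate 1 was left out, and −0.48 when WT replicate 2 was.

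Prkci (chromosome 3, 30995742 to 31052740) had the greatest positive difference of the set. Peaks covered 6.53 and 3.57 kb in WT against 9.08 and 10.2 kb in cKO, so both cKO libraries lay above both WT libraries. The centred log2 difference was 0.53 ± 0.22 (SE), at an unadjusted limma p of 0.0398 and an adjusted p of 0.486. It was 0.83 without WT replicate 1 (limma adjusted p = 0.0938), and 0.24 when WT replicate 2 was left out. With stricter peaks it was 0.15, and with equal covered length it turned to −1.0. Only 43.8% of the bases common to both cKO libraries were covered in both WT libraries, the lowest share of the set.

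Llgl1 (chromosome 11, 60699672 to 60714186), the basolateral member, had 1 broad peak over its start in every library, of 5096 and 4986 bp in WT against 5510 and 5581 bp in cKO. The cKO peaks were the wider ones, and all bases common to the WT libraries lay within both. The centred difference was −0.26 ± 0.19 (SE; limma adjusted p = 0.646) and 0.13 without centring, and −0.17 without WT replicate 2. Centring subtracts the median locus, which had more covered bases in cKO, so a locus with a small positive difference lies below 0 on that scale.

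Other polarity genes were taken from 3 lists, in which no locus passed the test in either direction. Of 14 measured partners of the Crumbs and PAR complexes, 8 had a positive and 6 a negative centred difference, with a median of 0.10 against −0.038 over all loci; 8 had more covered length in both cKO libraries, where 59.8% of all loci did, and none less. The largest differences were at Mpp4 (0.81 ± 0.44, SE), Mpp5, which encodes the PATJ partner PALS1 (0.75 ± 0.45), and the GTPase gene Cdc42 (−0.48 ± 0.49), with limma adjusted p between 0.555 and 0.732. Mpp5 had 1.30 and 0.325 kb covered in WT against 2.60 and 1.81 kb in cKO.

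In the Scribble module with the basolateral kinases, 6 of 13 differences were positive and 7 negative, with a median of −0.077, and 9 loci had more covered length in both cKO libraries. Dlg5, which encodes a scaffold of the membrane-associated guanylate kinase family, had 14.6 and 15.46 kb in WT against 24.7 and 28.6 kb in cKO. Stk11, which encodes the kinase LKB1, stood at −0.44 ± 0.16 (SE), Dlg5 at 0.42 ± 0.13 and Stxbp5 at −0.34 ± 0.17 (limma adjusted p from 0.468 to 0.534); without centring Stxbp5 was at 0.048. Of 24 apical junction and endfoot genes, 10 were positive and 14 negative, with a median of −0.024, and 20 had more covered length in both cKO libraries. Afdn, the afadin gene of adherens junctions, had 5.42 and 5.43 kb in WT against 11.0 and 11.4 kb in cKO, and a difference of 0.60 ± 0.17 (limma adjusted p = 0.435). Nectin2 stood at 0.55 ± 0.27 and Numb at −0.45 ± 0.27. The counts of 9 of 13 and 20 of 24 loci with more covered length stand beside the same 59.8% of all loci. In none of the 3 lists was a locus lower in both cKO libraries by covered length, against 1.23% of all loci.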

How the data were processed

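Broad peaks were deposited as 1 list per ChIP library; the 4 input libraries were not analysed here. The submitters' processing notes name MACS2 2.1.1, Bowtie2 2.2.8, cutadapt, FastQC and the build mm10. How they were set, and whether inputs served as controls, is not given in the sources used here. The authors' lists hold for every peak a score (10 times the −log10 q-value without decimals), a fold enrichment ratio over background, and significance as deposited −log10 values of the q-value and p-value. No counts are given, so depth is unknown, and deeper libraries can give more and wider peaks.

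Only the autosomes and sex chromosomes were used, which left out 1 peak of each cKO list. Covered bases per locus were taken as log2(bases + 500), which understates changes of thinly covered loci, for loci with a mean of at least 1000 bases, centred on library medians, and compared with limma 3.58.1 in R 4.3.3 (trend, no block, threshold 0.05). A region specific to a genotype was at least 200 bp, covered in both of its libraries and free of peaks in the other genotype. Python 3.11.15, numpy 2.4.6 and pandas 2.3.3 were used; the interval code and the fit were tested on simulated data. Gene spans and starts are RefSeq on GRCm38.p6.

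Members and lists were chosen with earlier results of these data known. Named were the 10 members, loci overlapping Patj, the 3 largest differences per list, and the 5 loci nearest to Patj in profile. Alternatives were other flanks, pseudocounts, filters, scalings and peak limits, a replicate block, and leaving out each library.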

Additional observations from a re-analysis of the deposited data

How the results depend on the processing

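The log2 difference of Patj was negative in all 15 alternatives (−0.93 to −0.29). It moved by more than the replicate SD of 0.16 without centring (−0.39), with stricter peaks (−0.29) and with equal covered length (−0.55). It ranged from −0.93 to −0.61 when 1 library was left out. The alternatives reuse the same libraries, and Patj was chosen for less covered length in cKO, so the shared sign carries no test. With stricter peaks the covered length of Patj was higher in both cKO libraries, and the difference was negative only after centring. No other member passed in any alternative (lowest limma adjusted p = 0.0938). Signs turned without centring for Crb2 (0.17), Crb3 (0.034), Pard3b (0.37), Pard6b (0.077), Pard6g (0.085) and Llgl1 (0.13), with equal covered length for Crb2 (0.0995), Llgl1 (0.088) and Prkci (−1.0), and with stricter peaks for Crb1 (−0.010). Pard3b also turned with no flank (0.021), a pseudocount of 2000 (0.064), cyclic loess (0.066) and when 1 library was left out (−0.072 to 0.044; positive without WT replicate 2, 0.044, and without cKO replicate 2, 0.027). Crb3 could not be fitted with no flank, where its mean fell under the filter.

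Over all loci, calls went from 0 and 0 to 206 higher and 196 lower with no filter, which tests more loci, and ranged from 0 to 119 higher and 0 to 5 lower when 1 library was left out. WT-only regions in the members' loci went from 1 to 3 with equal numbers of peaks and 14 with equal covered length. With stricter peaks there was again 1, but it was in Pard3 and not in Patj. The 11 cKO-only regions went to 5 at a minimum of 500 bp, 5 with equal numbers of peaks and 0 with equal covered length. Lists of equal number and of equal covered length both kept weaker peaks in WT than in cKO. With equal covered length the lowest −log10 q was 2.64 and 1.31 in WT against 3.65 and 3.75 in cKO. The cause of these shifts was not tested.

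Deviations of same-numbered libraries had r = −0.096 over 14937 loci, so no shared deviation by replicate number was seen. The labels do not say whether these libraries were paired, and with 2 libraries per genotype this value cannot decide it. The replicate block left Patj at −0.77 and gave 0 calls, with 781 higher and 449 lower loci at an unadjusted p under 0.05. Depth is unknown, which limits what rests on weak peaks.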
